A study of Mus musculus with 4 samples.

Results

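The genes described here are the tenascins *Tnn* (tenascin-W), *Tnc* (tenascin-C), *Tnr* (tenascin-R) and *Tnxb* (tenascin-X) together with *Postn* (periostin). They were chosen by gene symbol from the feature list of the count matrices, and all 5 are among the 19465 genes listed there. The matrices come from Visium spatial RNA-seq of formalin-fixed, paraffin-embedded sections of wild-type mouse heads at 2 embryonic stages, E14.5 and E15.5. Each stage had 2 capture areas, 1 with a single section (replicate 1) and 1 with 3 sections (replicates 2, 3 and 4), which gives 8 sections on 4 libraries. No label ties the sections of a shared area to a replicate number, and the letters A, B and C are used for them here.

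Tenascins are large glycoproteins of the extracellular matrix that modulate how cells attach to it, and periostin is a secreted matricellular protein that binds collagen-associated proteins and integrins. *Tnc* is known from developing skeleton, tendon and brain, *Tnn* from bone-forming and periosteal tissue, *Tnr* from the central nervous system, and *Tnxb* from the connective tissue of skin and muscle, where its product associates with collagen fibrils. *Postn* takes its name from the periosteum, the connective tissue sheath of bone, and is also a gene of tendon, ligament and dermis.

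Each spot on the slide covers a patch of tissue wider than a cell and may mix cell types, and a unique molecular identifier (UMI) counts 1 captured molecule. Levels are given in CPM, which is the count of a gene in every 1000000 UMIs of the same spots. Levels of different genes were not compared with each other, because probe capture differs between genes. In such sums, fewer cells of a type and less RNA per cell cannot be told apart. The median depth was lowest in the E14.5 replicate 1 section (6759 UMIs per spot) and in E14.5 section A (10037.5), and it lay between 38795 and 65616 in the other 6 sections. Of 6357 tissue spots, 6269 lay in a section and 88 in smaller loose pieces.

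Regions were defined by marker genes. In each section the 5% of spots with the highest mean z-score of a marker list formed a region, which gave 303 spots per region over the 8 sections, for 13 lists. No member is on a list. The lists stood out in their own regions. Bone markers (*Ibsp*, *Sp7*, *Alpl* and others) were 6.29-fold to 20.3-fold higher in bone spots than in the other spots of the same section, and tendon markers 2.47-fold to 9.43-fold higher in tendon spots. E15.5 section C was the exception for the brain. Its best cortical neuron spots held only 41.1 CPM of the cortical markers, against 1396 to 4636 CPM in the other 7 sections. Mean levels of the members in the brain regions are therefore given with and without this section. Dermis and epidermis spots shared 131 spots, 43.2% of each region.

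Over whole sections the members differed in how widely they were detected. *Postn* had a UMI in 59.9% to 99.8% of the spots of a section and *Tnc* in 61.9% to 98.7%. *Tnn* was found in 13.3% to 82.9%, *Tnr* in 4.74% to 43.5% and *Tnxb* in 6.33% to 40.6%. These shares move with depth. With each spot thinned to 3000 UMIs, *Tnn* was found in 5.996% to 16.0% of spots, *Tnr* in 0.190% to 4.88% and *Tnxb* in 1.32% to 5.51%. The values of *Tnr* and *Tnxb* below therefore rest on sums over spots, with 3114 and 2263 UMIs in all sections, against 11927 for *Tnn*, 74433 for *Tnc* and 86979 for *Postn*.

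**Figure D1:**
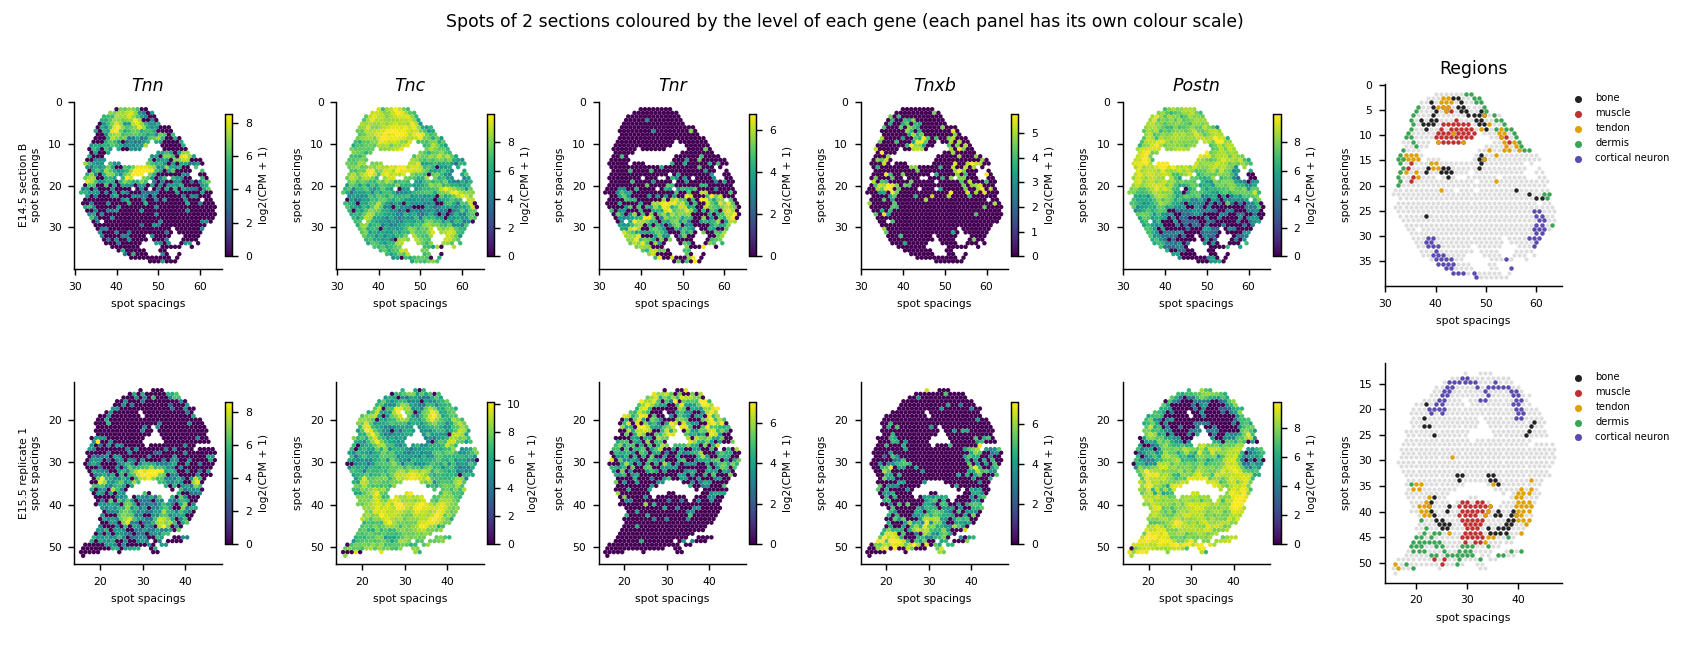
Spots of E14.5 section B (top) and the E15.5 replicate 1 section (bottom), both axes in spot spacings, coloured by log2(CPM + 1) of each gene on a scale of its own, with the bone, muscle, tendon, dermis and cortical neuron spots in the last column. Both sections show *Tnr* where *Postn* and *Tnn* are low, and *Tnn* in compact patches.

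The first comparison asked where in the head each gene was expressed, as the level in a region against the other spots of the same section. It was made for 5 genes and 13 regions with an exact two-sided sign-flip permutation test over the 8 sections on log2(CPM + 1), with Benjamini-Hochberg adjustment over the 65 contrasts. The smallest p this test can give is 0.0078125. Sections of a capture area share a library and are not fully independent. Of the 65 contrasts, 43 passed an adjusted p of 0.05, 14 of them higher in the region and 29 lower. With the 4 capture areas as units the design cannot reach an exact p of 0.05, and no contrast passed. Without either area of 3 sections, the 5 sections left cannot reach it either (smallest p 0.0625).

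*Tnn* was highest in bone spots. At E14.5 its level there was 61.2 CPM in replicate 1 and 72.7, 137 and 111 CPM in A, B and C. At E15.5 it was 72.1 CPM in replicate 1 and 102, 64.8 and 94.6 CPM in A, B and C. Each of these was above the level of the other spots of its section, and the stages overlapped. The mean was 89.5 ± 26.5 CPM (SD, n = 8) in bone spots against 41.2 ± 18.3 CPM elsewhere, a log2 difference of 1.17 ± 0.64 (SD), with an exact permutation p adjusted to 0.0188 and a higher level in 8 of 8 sections. With each spot thinned to 3000 UMIs the difference was 0.73 and the adjusted exact permutation p was 0.0819. The excess was smallest in E15.5 section C, at 0.30, where *Tnn* was also high outside bone (76.4 CPM).

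*Tnn* was next highest in spots marked by oral and palatal mesenchyme genes (*Osr2*, *Pax9*, *Barx1*, *Msx1*, *Shox2*), at 65.4 ± 28.4 CPM, and in tendon spots, at 60.0 ± 18.9 CPM. Neither passed the test against the other spots over all 8 sections. The log2 differences were 0.61 ± 0.97 in oral and palatal mesenchyme (adjusted exact permutation p = 0.169) and 0.52 ± 0.63 in tendon (0.0677). In oral and palatal mesenchyme E15.5 section C stood apart, with 29.4 CPM in the region and 80.5 CPM elsewhere, while the other 7 sections were higher in the region. Without this section, left out after seeing the data, the difference was 0.90 ± 0.57 and passed the threshold (adjusted exact permutation p = 0.0299). *Tnn* was lower in each of the 8 sections in muscle (24.1 ± 10.2 CPM), dermis (28.8 ± 18.5 CPM) and meninges (14.6 ± 8.33 CPM). In dermis the direction turned with thinned spots, to 0.044 on the log2 scale. It was near the limit of detection in the brain. Its mean in cortical neuron spots was 8.41 CPM with E15.5 section C and 2.45 ± 1.14 CPM in the other 7 sections.

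*Tnc* was highest in bone spots as well, and it was also high in muscle. In bone spots it lay at 728, 530, 602 and 717 CPM at E14.5 (replicate 1, then A, B and C) and at 713, 558, 529 and 586 CPM at E15.5. All 8 values were above the other spots of the same section, and the range of one stage covered much of the other. The mean was 620 ± 85.9 CPM against 252 ± 39.2 CPM elsewhere, a 2.46-fold difference with an SD of 0.39 on the log2 scale (adjusted exact permutation p = 0.0188). In muscle spots, marked by *Myh3*, *Ttn* and other sarcomere genes, *Tnc* was at 484 ± 77.7 CPM, 0.90 ± 0.33 higher on the log2 scale and higher in 8 of 8 sections. In tendon spots it was at 371 ± 71.9 CPM (log2 difference 0.46 ± 0.42, higher in 7 of 8 sections, adjusted exact permutation p = 0.0472). Without E15.5 section C the tendon contrast was higher in 6 of 7 sections and missed the threshold (adjusted exact permutation p = 0.0677). Both bone and muscle kept an adjusted p of 0.0339 with thinned spots (same exact permutation test).

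*Tnc* was lower in cartilage spots in each of the 8 sections, at 196 ± 26.7 CPM (log2 difference −0.50 ± 0.23), so that the 2 skeletal regions differed for this gene. It was also lower in meninges, at 131 ± 47.4 CPM, and in cortical neuron spots, at 116 ± 88.6 CPM with all sections and 87.2 ± 38.5 CPM without E15.5 section C. Radial glia, the progenitors that line the ventricles, split the sections. There *Tnc* reached 395 CPM in the E14.5 replicate 1 section, 391 CPM in the E15.5 replicate 1 section and 263 CPM in E14.5 section B, and it was above the other spots in these 3 sections. It lay between 84.1 and 194 CPM in the other 5, where it was lower than in the other spots. The mean log2 difference was −0.48 ± 1.03 and missed the threshold (adjusted exact permutation p = 0.273). Without E15.5 section C it was −0.37 ± 1.06 (adjusted exact permutation p = 0.472).

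Beside these counts, 2 of the 5 members (*Tnn* and *Tnc*) were higher in bone spots in each of the 8 sections, as were 6.72% of the 15207 genes with at least 50 UMIs, and 2 (*Tnr* and *Tnxb*) were lower in each, as were 29.4%. In muscle 2 members (*Tnc* and *Tnxb*) were higher in each section (8.33% of genes) and 2 (*Tnn* and *Tnr*) were lower (22.8%). In cartilage 1 member (*Tnc*) was lower in each section (12.7%), and in meninges 2 (*Tnn* and *Tnc*) were (3.74%). By mean log2 difference *Tnc* was rank 189 and *Tnn* rank 232 of these genes in bone.

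*Tnxb* was highest in muscle spots. Its level in muscle spots at E14.5 was 48.7 CPM in replicate 1 and 21.8, 15.5 and 14.7 CPM in A, B and C. At E15.5 it was 34.3 CPM in replicate 1 and 19.01, 19.7 and 24.5 CPM in A, B and C. Both replicate 1 sections were above the sections A to C of their stage. The mean was 24.8 ± 11.4 CPM against 6.84 CPM elsewhere, a log2 difference of 1.68 ± 0.54 (adjusted exact permutation p = 0.0188). It was at least 2-fold higher in muscle in each of the 8 sections, which held for 1 of 5 members and 1.75% of genes. These values rest on few molecules in the shallow sections, 16 UMIs at E14.5 in replicate 1 and 15 in section A. On average 19.9% of the *Tnxb* UMIs of a section lay in the 5% of spots that made up muscle. This share also moves with depth. The median depth of muscle spots was above that of their section, as in E15.5 replicate 1 (104337 against 64084 UMIs per spot), except in E14.5 replicate 1 (4119.5 against 6759). With thinned spots the difference was 1.24 and missed the threshold (adjusted exact permutation p = 0.173).

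*Tnxb* was also higher in tendon spots in each of the 8 sections, at 15.9 ± 6.37 CPM (log2 difference 0.99 ± 0.61), a pattern shared by 1 of 5 members and 5.64% of genes. The call was lost with thinned spots, where the difference was 0.22 (adjusted exact permutation p = 0.904). In dermis *Tnxb* ranged from 0 to 30.4 CPM, and in epidermis from 2.66 to 33.0 CPM, and neither region passed the test against the other spots. It was lower in bone spots in each section, at 3.24 ± 1.47 CPM (log2 difference −1.14 ± 0.46), and in 7 of 8 sections in oral and palatal mesenchyme, at 2.95 ± 2.77 CPM.

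*Postn* was spread over connective tissues outside bone. In tendon spots it was at 798, 285, 517 and 366 CPM at E14.5 (replicate 1, then A, B and C) and at 613, 1186, 724 and 883 CPM at E15.5. E14.5 section A was the only section in which it was not above the other spots, at 285 against 294 CPM. The mean was 672 ± 292 CPM, a log2 difference of 1.11 ± 0.66 (adjusted exact permutation p = 0.0274), and *Postn* had rank 58 of all genes in this contrast. With thinned spots the difference was 0.78 and the adjusted exact permutation p was 0.0819. Oral and palatal mesenchyme followed at 601 ± 331 CPM (log2 difference 0.87 ± 0.63, higher in 7 of 8 sections) and dermis at 576 ± 184 CPM (0.91 ± 0.54, higher in 8 of 8). Endothelium (475 ± 189 CPM) and peripheral nerve (446 ± 171 CPM) also passed the test. So did muscle (454 ± 184 CPM), higher in 6 of 8 sections (adjusted exact permutation p = 0.0472). The other spots in these contrasts include brain regions, where the mean level of *Postn* was lowest. *Postn* was higher in each of the 8 sections in dermis, as were 10.9% of genes, in endothelium (6.55%) and in peripheral nerve (4.88%), each time as 1 of the 5 members.

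In bone spots *Postn* missed the threshold. It was at 305 ± 94.4 CPM there against 343 CPM elsewhere, higher in 4 sections and lower in 4 (log2 difference −0.06 ± 0.56, adjusted exact permutation p = 0.781). Its means in the brain regions were the lowest of the 13, at 99.6 ± 192 CPM in cortical neuron spots and 73.9 ± 140.3 CPM in GABAergic neuron spots over 8 sections. Without E15.5 section C they were 32.1 ± 20.5 and 24.6 ± 17.9 CPM.

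*Tnr* was highest in cortical neuron spots. In cortical neuron spots, marked by *Neurod2*, *Neurod6*, *Tbr1* and *Grin2b*, it was at 66.2, 42.5, 44.98 and 39.8 CPM at E14.5 (replicate 1, then A, B and C) and at 75.5, 60.2 and 54.1 CPM at E15.5 (replicate 1, then A and B). E15.5 section C had 0 UMIs of *Tnr* in its 26 spots, and 26 UMIs in the whole section (0.884 CPM, exact Poisson 95% interval 0.577 to 1.295, for counting error only). Over all 8 sections the log2 difference to other spots was 1.97 ± 1.27 (higher in 7 of 8, adjusted exact permutation p = 0.0274). Over the other 7 it was 2.39 ± 0.50, from 54.7 ± 13.3 CPM in the region against 9.91 CPM outside it. In GABAergic neuron spots the level was 29.0 ± 13.1 CPM over 8 sections (log2 difference 1.37 ± 0.89) and 33.0 ± 6.91 CPM over these 7 (1.58 ± 0.71). In radial glia it was 13.5 ± 6.88 CPM over 8 sections and 14.8 ± 6.24 CPM over the 7, and it missed the threshold both ways (higher in 5 of 8 and 4 of 7). The depth of cortical spots varied strongly, with a median of 3446 UMIs in E14.5 section A and 67689 in the E15.5 replicate 1 section, and its part in these values was not tested.

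Away from the brain *Tnr* was low. Its mean was 0.426 CPM in muscle, 0.820 CPM in dermis, 1.32 CPM in bone and 1.89 CPM in tendon and epidermis. It was lower in each of the 8 sections in dermis and in tendon, epidermis and oral and palatal mesenchyme. The share of all genes lower in each section was 16.7% in dermis (2 of 5 members), 13.7% in tendon (1 of 5), 15.7% in epidermis (1 of 5) and 8.25% in oral and palatal mesenchyme (1 of 5). *Tnn* and *Tnc* were lower in each section in cortical neuron spots (15.9% of genes), *Tnn*, *Tnxb* and *Postn* in GABAergic neuron spots (21% of genes), and *Tnn* and *Postn* in radial glia (19.1% of genes).

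**Figure D2:**
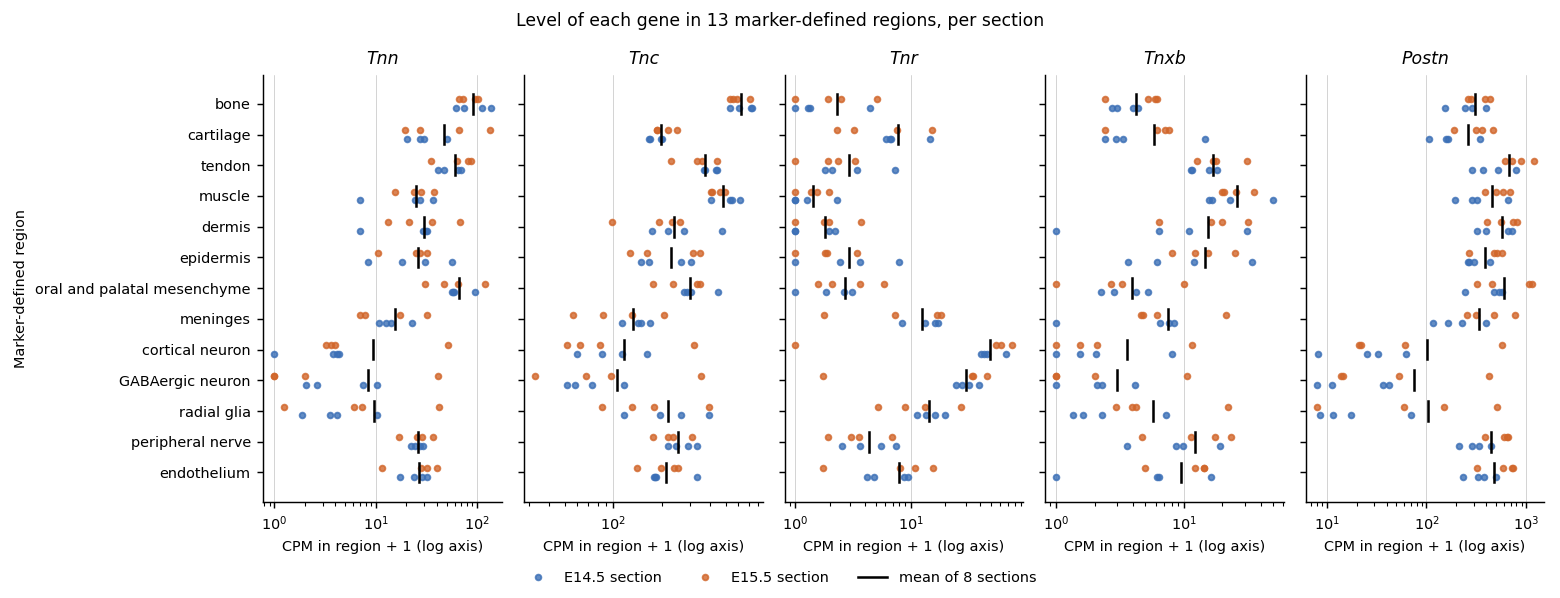
Level of each gene in the 13 regions on a log axis of CPM + 1, with 1 point per section (blue E14.5, orange E15.5) and a bar at the mean of the 8 sections. *Tnn* and *Tnc* are highest in bone, *Tnr* in cortical neurons, *Tnxb* in muscle and *Postn* in tendon, and the lone orange point among the low brain values of *Tnn* and *Postn* is E15.5 section C.

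The order of the regions was less certain than its ends. Neighbours in the order of mean level were compared in the same way, as 60 pairs, and none differed at an adjusted exact permutation p of 0.05, the lowest being 0.234. *Tnn* in bone was 0.51 ± 0.84 above oral and palatal mesenchyme on the log2 scale (higher in 6 of 8 sections), and *Postn* in tendon was 0.21 ± 0.66 above oral and palatal mesenchyme (5 of 8). *Tnr* in cortical neuron spots was 0.52 ± 0.59 above GABAergic neuron spots (7 of 8).

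How far each gene reached from bone was followed next, by spots counted in steps on the array away from the nearest bone spot. *Tnc* fell at once. It went from 620 ± 85.9 CPM in bone spots to 443 ± 49.1 CPM at 1 step, 310 ± 63.6 CPM at 2 steps and 165 ± 43.0 CPM at 6 steps, and bone spots were above the first step in 8 of 8 sections. *Tnn* stayed level over the first step. It had 89.5 ± 26.5 CPM in bone spots and 86.2 ± 25.9 CPM at 1 step, where bone spots were higher in only 3 of 8 sections, then 64.8 ± 23.3 CPM at 2 steps, 53.2 ± 26.0 CPM at 3 and 23.4 ± 11.99 CPM at 4 steps.

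*Postn* ran the other way over the first step from bone spots. It rose from 305 ± 94.4 CPM in bone spots to 449 ± 193 CPM at 1 step, and the first step was higher in 8 of 8 sections, by a median ratio of 1.33. The rise was not a narrow rim, since *Postn* was still at 445 ± 208 CPM at 2 steps, 422 ± 195 CPM at 3 and 370 ± 182 CPM at 4. Its peak lay at 1 step in 4 sections, at 2 steps in 3 and at 6 steps in 1. No list marked the periosteum, so these adjacent spots are described by their distance alone. *Tnxb* went from 3.24 ± 1.47 CPM in bone spots to 10.1 ± 4.00 CPM at 4 steps, and *Tnr* from 1.32 ± 1.59 CPM to 11.8 ± 6.37 CPM at 6 steps. For reference, the collagen gene *Col1a1* fell from 61081 CPM in bone spots to 27483 CPM at 1 step, and *Runx2*, which encodes a transcription factor of the osteoblast lineage, from 350.0 to 230.3 CPM.

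The mean distance from bone, over spots within 6 steps and weighted by the CPM of the gene in each spot, summarised these profiles. It was 2.26 ± 0.32 steps for *Tnn*, 2.27 ± 0.23 for *Tnc*, 2.94 ± 0.27 for *Postn*, 3.48 ± 0.35 for *Tnxb* and 3.71 ± 0.33 for *Tnr*, against 3.06 ± 0.14 for the spots themselves. Of the 10 pairs of members 8 differed, each with the same direction in 8 of 8 sections and an adjusted exact permutation p of 0.00977. *Tnn* and *Tnc* differed by −0.01 ± 0.26 steps (exact permutation p = 0.938) and *Tnr* and *Tnxb* by 0.24 ± 0.42 steps (0.191 adjusted). With thinned spots 2 of the 10 pairs passed.

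**Figure D3:**
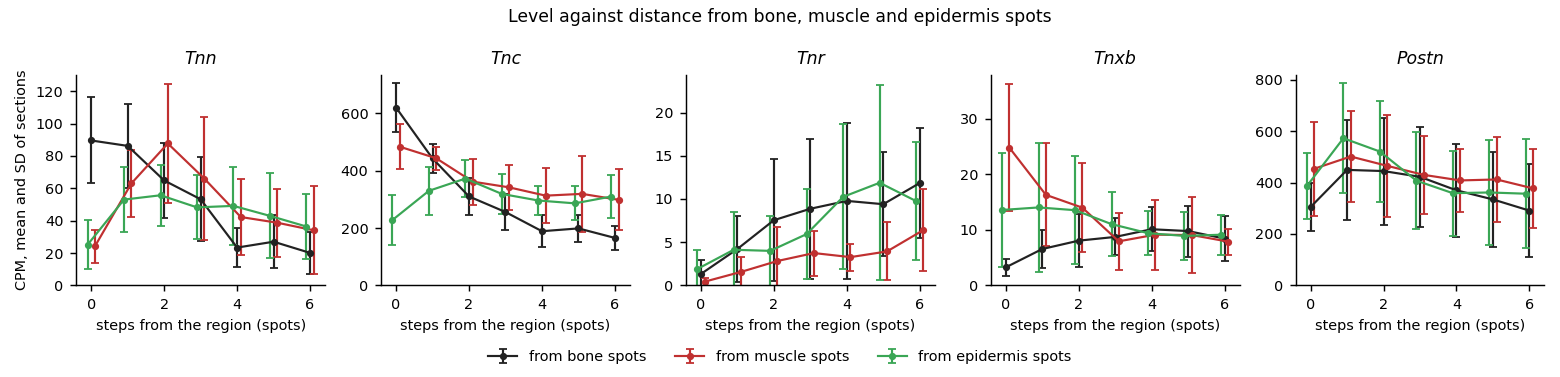
CPM of each gene (mean and SD of the sections) against the number of steps from bone (black), muscle (red) and epidermis spots (green), with step 0 the region itself. *Tnc* falls from 620 CPM in bone, *Tnn* peaks at 87.7 CPM at 2 steps from muscle, *Tnxb* falls from 24.8 CPM in muscle, and *Postn* is higher at 1 step from bone and from epidermis than in either region.

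Around muscle *Tnn* and *Tnxb* had opposite profiles. *Tnn* was at 24.1 ± 10.2 CPM in muscle spots, 63.0 ± 20.7 CPM at 1 step and 87.7 ± 36.7 CPM at 2 steps, and the second step was above muscle in 8 of 8 sections with a median ratio of 3.41. *Tnxb* went from 24.8 ± 11.4 CPM in muscle to 16.3 ± 9.25 CPM at 1 step and 7.92 ± 5.17 CPM at 3 steps, and muscle was above the first step in 8 of 8 sections. Bone markers also climbed away from muscle, *Ibsp* from 276 CPM in muscle spots to 1449 CPM at 2 steps, and their part in the *Tnn* profile was not tested. At the surface of the head, *Postn* was at 386 ± 128 CPM in epidermis spots and 572 ± 214 CPM at 1 step beneath or beside them, higher at the first step in 8 of 8 sections. *Tnn* went from 25.1 ± 15.2 to 53.0 ± 20.1 CPM over the same step (7 of 8 sections).

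*Tnn* and *Tnc* also varied together from spot to spot. Their Pearson correlation across the spots of a section, on log2(counts per 10000 UMIs + 1), averaged 0.36 over the 8 sections, with 0.12 in the lowest and 0.49 in the highest. It was 0.34 for *Tnc* with *Postn*, 0.24 for *Tnxb* with *Postn* and 0.23 for *Tnn* with *Postn*. *Tnr* was negatively correlated with the other 4 members, from −0.09 with *Tnxb* to −0.29 with *Postn*. These are descriptions, since neighbouring spots are not independent and the spots of a section share a library and a range of depth.

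The genes most alike each member were ranked by the same mean correlation among 10501 genes with a UMI in at least 10% of the spots of each area. For *Tnn* they were *Gsc*, *Prrx1*, *Anxa1*, *Runx2* and *Sp7*, from 0.43 to 0.36, with *Tnc* sixth. *Gsc* and *Prrx1* encode homeodomain transcription factors of craniofacial mesenchyme, and *Sp7* one of osteoblasts. For *Tnc* they were the collagen gene *Col22a1*, the bone genes *Ibsp*, *Alpl* and *Sp7*, and *Tmem119*, from 0.56 to 0.51. For *Tnr* the neuronal genes *Mapt*, *Bmerb1*, *Rtn1*, *Crmp1* and *Stmn4* led, from 0.48 to 0.47. For *Tnxb*, which itself was in under 10% of the spots of the shallowest area (9.67%), the sarcomere and muscle genes *Acta1*, *Myh3*, *Pdlim3*, *Myl4* and *Ttn* led at 0.32 to 0.31. For *Postn* they were *Col3a1* (0.69), *Dlk1*, *Lgals1*, *Cdkn1c* and *Col6a2* (0.64), the highest values of the 5 members. *Postn* also had the most UMIs of the 5, and the part of this in the correlations was not tested. *Sp7*, *Ibsp* and *Alpl* are on the bone list and *Myh3* and *Ttn* on the muscle list.

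The 5 genes lie apart in the genome except for a pair. By GENCODE M21 on GRCm38 (mm10), *Tnr* spans chr1:159523769-159931729 on the plus strand and *Tnn* chr1:160085029-160153580 on the minus strand, with *4930523C07Rik* as the only annotated protein-coding gene between them. *Tnc* lies at chr4:63959785-64047015 (minus strand), *Postn* at chr3:54361109-54391037 (plus strand) and *Tnxb* at chr17:34670535-34719815 (plus strand). The neighbours *Tnr* and *Tnn* had separate patterns, with a mean correlation across spots of −0.15.

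Because *Tnc* was highest in bone spots and *Postn* was higher beside them than in them, the 250 bases before a RefSeq start site of each (GRCm38.p6) are shown, on the strand of the gene, with the TATA box letters TATAAA in capitals. They cover chr4:64047016-64047265 for *Tnc* and chr3:54360857-54361106 for *Postn*, each as 1 of 2 windows given for the gene.
Tnc: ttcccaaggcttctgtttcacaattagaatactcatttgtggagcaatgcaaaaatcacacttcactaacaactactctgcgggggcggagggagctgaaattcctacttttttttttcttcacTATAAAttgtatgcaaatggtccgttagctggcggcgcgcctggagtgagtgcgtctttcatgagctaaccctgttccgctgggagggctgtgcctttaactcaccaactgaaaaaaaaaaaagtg
Postn: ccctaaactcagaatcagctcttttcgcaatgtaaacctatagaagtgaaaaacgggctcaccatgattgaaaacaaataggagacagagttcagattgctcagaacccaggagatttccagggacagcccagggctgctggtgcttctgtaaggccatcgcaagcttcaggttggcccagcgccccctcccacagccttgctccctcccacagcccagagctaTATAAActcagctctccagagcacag
TATAAA or its reverse complement was in 12.4% of the 32851 mouse windows of this length. It starts 126 bases before the start site in the *Tnc* window and 26 bases before it in the *Postn* window. These letters are also in the other *Tnc* window, 205 bases before its start site, and are not in the other *Postn* window. Only these exact letters were searched for, and whether a match works as a TATA box was not tested. The core bound by Runx factors, TGTGGT on either strand, was in 14% of all windows, and these letters are not in any window given for *Tnc*, *Tnr*, *Tnxb* and *Postn*, nor is the E-box CAGCTG (13% of windows), the type bound by MyoD. G and C made up 44.8% of the *Tnc* window and 52% of the *Postn* window.

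Among 33 binding partners, processing enzymes, relatives and regulators of these genes, bone was the region with most members higher in each section. In bone spots 15 of the 33 were higher in each of the 8 sections (6.72% of all genes) and 2 were lower (29.4%), with a median log2 difference of 0.53 against −0.23 over all genes. *Col1a1* (log2 difference 2.44), *Runx2* (2.13), *Tgfb1* (2.03), which encodes a growth factor, and *Sparc* (1.96), which encodes a collagen-binding matricellular protein, were at least 2-fold higher in each section, 4 of 33 beside 0.848% of all genes. *Col1a1*, *Runx2* and *Sparc* are known bone genes, so their excess in bone spots partly follows from the choice of the list. The 2-fold count was not particular to bone. In cartilage spots 4 of the 33 were also at least 2-fold higher in each section (*Ccn2*, *Thbs1*, *Sdc4* and *Ccn1*) and 9 were higher in each. The share of all genes for these cartilage counts is not given here. In tendon spots 9 of the 33 were higher in each section (5.64% of all genes) and 3 lower (13.7%), and in dermis 8 were higher (10.9%) and 4 lower (16.7%). In the brain 12 of the 33 were lower in each section in cortical neuron spots (15.9% of all genes) and 22 in radial glia (19.1%).

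The second comparison asked whether the members changed between E14.5 and E15.5. Over whole sections *Postn* was at 224, 294, 191 and 138 CPM at E14.5 (replicate 1 and sections A, B and C) and at 249, 559, 509 and 562 CPM at E15.5. The stages overlapped, since the E15.5 replicate 1 section stood apart from the other E15.5 sections and lay within the E14.5 range. *Tnxb* was at 7.91, 5.09, 4.82 and 5.46 CPM at E14.5 and at 11.2, 8.65, 8.03 and 11.9 CPM at E15.5. Each E15.5 section was above each E14.5 section for this gene, as for 1 of the 5 members and 6.16% of genes. *Tnn* ranged from 18.3 to 46.6 CPM at E14.5 and from 27.5 to 77.4 CPM at E15.5, *Tnc* from 215 to 322 and from 260.3 to 318 CPM, and *Tnr* from 7.91 to 22.7 and from 0.884 to 15.4 CPM, and these ranges overlapped.

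The test was made on UMIs summed per capture area, 2 areas against 2, with the quasi-likelihood test of edgeR on all genes. None of the 5 members passed an adjusted p of 0.1, and neither did any of the 15609 genes tested (0%). The difference of E15.5 from E14.5 on the log2 scale was 0.93 ± 0.38 (SE) for *Postn* and 0.76 ± 0.33 for *Tnxb*, each with an adjusted p of 0.769 in edgeR. These sums include the loose pieces, and in the E15.5 area of replicates 2, 3 and 4 the 66 spots outside the sections, rich in epidermis markers (9500 CPM), held 179 of the 1011 *Tnxb* UMIs. With the spots outside the sections left out, an alternative chosen after seeing the data, the differences were 0.92 ± 0.38 for *Postn* and 0.63 ± 0.34 for *Tnxb* (both 0.784 adjusted in edgeR). It was 0.45 ± 0.48 for *Tnn* (0.820), 0.15 ± 0.25 for *Tnc* (0.889) and −0.76 ± 0.53 for *Tnr* (0.777), by the same edgeR test. Leaving out each area in turn moved *Tnn* between −0.19 and 1.22, *Tnc* between −0.019 and 0.33 and *Tnr* between −1.74 (without E15.5 replicate 1) and −0.17 (without E15.5 replicates 2, 3 and 4), so the direction of *Tnn* and *Tnc* turned with the areas used. At an unadjusted p of 0.05 the test had 930 genes, among them *Postn* (0.0407) but not *Tnxb* (0.0528), and DESeq2 called 37 genes, none of them a member. Without the E15.5 area of replicates 2, 3 and 4 the difference for *Postn* was 0.27, and without the E15.5 replicate 1 area it was 1.396.

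**Figure D4:**
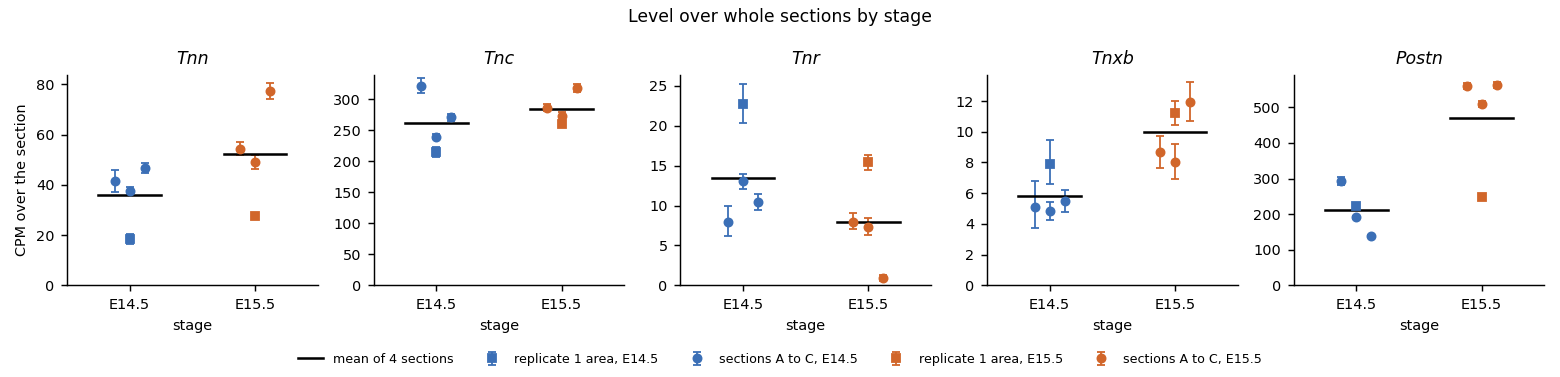
CPM of each gene over whole sections by stage, with 1 point per section (squares replicate 1 areas, circles sections A to C), exact Poisson 95% intervals for counting error only and a bar at the mean of 4 sections. *Tnxb* sections do not overlap between stages, and the E15.5 replicate 1 section of *Postn* (249 CPM) lies among the E14.5 values.

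The stages were also compared within regions, on spots chosen by the same marker lists. The marker levels of these spots were not alike throughout. In bone spots the bone markers were at 5615 to 7160 CPM in the E14.5 sections and at 6792 to 12052 CPM in the E15.5 sections. The part of this in the differences was not tested. In bone spots *Tnn* differed by −0.24 ± 0.33 (SE) and *Tnc* by −0.11 ± 0.25 on the log2 scale. *Postn* differed by 0.13 ± 0.32 in bone, 0.36 ± 0.33 in tendon, −0.01 ± 0.33 in dermis and 0.30 ± 0.37 in oral and palatal mesenchyme. *Tnxb* differed by 0.34 ± 0.40 in tendon and 0.92 ± 0.64 in dermis. In cortical neuron spots *Tnr* differed by −0.07 ± 0.52, and by 0.27 ± 0.30 without E15.5 section C. *Postn* differed there by 2.10 ± 0.98 with that section, which was at 572 CPM, and by −0.11 ± 0.37 without it. In radial glia spots *Tnc* differed by −0.25 ± 0.54 and *Postn* by 2.97 ± 1.15, or 1.74 ± 0.83 without the same section.

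None of these passed an adjusted p of 0.1 in edgeR, and the share of all genes called was 0% in each of the 6 regions. At an unadjusted p of 0.05 edgeR had between 19 genes (cortical neuron) and 310 genes (dermis) in these regions, and DESeq2 called 0 or 1. Of the 31 to 33 partners tested none was called over whole areas or in any region, with 3 at an unadjusted p of 0.05 over whole areas. A p that misses the threshold does not show that the levels were equal.

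Whether a gene stood out from its surroundings more at one stage was also tested, by an exact permutation of the stage over the 8 sections for each of the 65 contrasts. None passed after adjustment, the lowest adjusted p being 0.464, and 4 had the smallest p the design allows, 0.0286. The excess of *Postn* in dermis spots over other spots was 1.10 to 1.77 on the log2 scale in the 4 E14.5 sections and 0.15 to 0.73 in the 4 E15.5 sections, without overlap. The share of all genes without such overlap is not given here. The level in dermis spots itself did overlap, at 322 to 728 CPM at E14.5 and 400 to 810 CPM at E15.5. Over whole sections *Postn* ranged from 138 to 294 CPM and from 249 to 562 CPM. The part of this in the smaller excess was not tested. The other 3 of these 4 contrasts were *Postn* in endothelium and *Tnr* in bone and in oral and palatal mesenchyme. The mean log2 value differed by −0.45 at E15.5 for *Postn* and was 1.41 and 1.54 higher for *Tnr*. *Tnr* averaged below the other spots at both stages. It went from −3.11 to −1.70 in bone and from −2.85 to −1.30 in oral and palatal mesenchyme. In bone this rests on 0 to 2 *Tnr* UMIs per section at E14.5 and 0 to 14 at E15.5. Whole sections averaged 13.5 CPM of *Tnr* at E14.5 and 7.90 CPM at E15.5, and the part of this in the contrasts was not tested.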

How the data were processed

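Visium libraries of 4 capture areas were analysed from the UMI counts per gene and spot that the authors deposited with tissue positions, raw and without normalization, made with Space Ranger 1.3.1 (replicate 1 areas) and 2.0.0 (the others) per the file headers and with mm10 per the submitters' processing notes. Groups were taken from the sample labels. The 19 barcodes off tissue were left out. Connected pieces of at least 100 spots were taken as sections, and touching sections were split by k-means (scikit-learn 1.9.0). Spots of one array position share a barcode between areas by the design of the slides (540 to 1388 per pair of areas). No doublet caller was run, since spots hold several cells.

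Counts were summed per region and section and scaled to CPM over the same spots. A spot needed 1000 UMIs to enter a region. A pseudocount of 1 CPM was added before log2. The bone list lacks *Bglap2* and the dermis list *Twist2*, which are not among the genes listed, leaving 7 and 3 markers. Region levels and distances from bone were compared by exact sign-flip permutation tests over sections, two-sided, with Benjamini-Hochberg adjustment. Stages were compared on summed counts of areas with edgeR 4.0.16 in R 4.3.3 (TMM, default filter on low counts, quasi-likelihood test). The step was tested on simulated data. Alternatives were DESeq2 1.42.0, other filters, scalings and region sizes, a pseudocount of 5, thinned counts, sections or areas as units, the replicate number as a block, and each area left out. The genes named are the 5 members, for each the 5 most alike genes, and partners that pass a test or stand in a profile. The members, lists and tests were chosen with earlier results of these data known. Leaving out E15.5 section C was chosen after seeing the data. The labels do not say which animals the sections came from, so p-values measure the spread between these sections and areas, which may be technical. Total UMIs per area ranged from 15438992 to 109127953. The promoter sequence of *Tnn* is not reported here.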

Additional observations from a re-analysis of the deposited data

Results flagged for a closer look

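Of 80 groups of 4 or 8 sections checked for a section far from the rest, 10 held one by Dixon's test at the 95% level, and chance flags about 1 in 20 groups. Over whole sections at E15.5, *Postn* was lowest in the replicate 1 section, at 249 CPM. Relative to the other spots on the log2 scale, *Tnc* in cartilage was lowest in E14.5 section A (−0.98), and *Postn* in cartilage was highest in the single section of E14.5 (0.65). *Tnn* in muscle was highest in E14.5 section B (−0.063), in peripheral nerve in E14.5 replicate 1 (0.21), and lowest in oral and palatal mesenchyme in E15.5 section C (−1.42). *Tnr* was lowest in epidermis in E14.5 replicate 1 (−4.59) and in cortical neuron spots in E15.5 section C (−0.95), the section that lacks cortical markers. The mean distance from bone was highest for *Tnr* in E14.5 section C (4.45 steps) and lowest for *Tnxb* in E15.5 section B (2.71 steps).

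The loose pieces of tissue entered the sums over whole areas but no comparison of sections or regions, and those of the E15.5 area of replicates 2, 3 and 4 held a signal above that of the sections. In its 66 spots outside the sections *Tnxb* was at 77.8 CPM (179 UMIs) and *Postn* at 847 CPM (1948 UMIs), while the sections of both stages reached at most 11.9 and 562 CPM. The largest piece, of 42 spots, had 69.9 CPM of *Tnxb* and 755 CPM of *Postn*, and a piece of 11 spots had 158 and 1565 CPM. Epidermis markers were at 9500 CPM in these 66 spots against 184 to 741 CPM in the sections, dermis markers at 1934 against 598 to 917 CPM, and muscle markers at 4755 against 1004 to 4777 CPM. Their part in the result was not tested.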

How the results depend on the processing

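Over whole areas, no stage difference of the 5 members passed the threshold under an alternative that kept its direction. The number of all genes called, 0 as reported, became 37 over whole areas with DESeq2, and 1 each in bone, dermis and oral and palatal mesenchyme. Without a filter on low counts it was 13 in bone, 24 in tendon, 51 in dermis, 17 in oral and palatal mesenchyme and 105 in radial glia. With sections as samples it was 2 in bone, 3 in tendon, 3 in dermis and 2 in oral and palatal mesenchyme. With counts thinned to the smallest total it was 1 in bone, 7 in tendon and 1 in oral and palatal mesenchyme, and with the top 2.5% of spots 2 in tendon and 1 in oral and palatal mesenchyme. With the replicate number as a block it was 18 in bone, 22 in tendon, 10 in dermis, 14 in oral and palatal mesenchyme, 21 in radial glia and 0 over whole areas and in cortical neuron spots. No label ties same-numbered areas to an animal or a batch, though replicate 1 areas also share a software version and a layout of 1 section. The deviations of same-numbered areas correlated at 0.25 over whole areas, 0.41 in cortical neuron spots, 0.34 in radial glia and from −0.0033 to 0.065 in the other regions.

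Leaving out each area in turn, with the lone area assumed to vary like the other stage, gave 0 to 78 calls over whole areas, 1 to 12 in bone, 4 to 80 in tendon, 2 to 45 in dermis, 1 to 27 in oral and palatal mesenchyme, 0 to 1520 in cortical neuron spots and 0 to 77 in radial glia. The 78, the 1520 and the 77 were without E15.5 replicate 1. The stage difference of *Tnn* over whole areas ranged from −0.19 to 1.22 and turned negative without E15.5 replicates 2, 3 and 4 (−0.19) or without E14.5 replicate 1 (−0.04). That of *Tnc* ranged from −0.019, without E14.5 replicate 1, to 0.33. The cause was not tested.

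Of the 43 region contrasts past the threshold, 23 were left with thinned spots, 0 with areas as units and 0 to 31 without each area, 0 without either area of 3 sections, 27 without E15.5 replicate 1 and 31 without E14.5 replicate 1. With 5 sections the smallest p is 0.0625. Without E15.5 section C, chosen after seeing the data, 42 contrasts passed, not all of them among the 43. *Tnn* in oral and palatal mesenchyme was gained (adjusted exact permutation p = 0.0299). *Tnc* in tendon and *Tnn* in epidermis were lost (each 0.0677 by the same test). Of the 8 distance pairs, 2 passed with thinned spots, 0 with areas as units and 0 to 8 without each area. With thinned spots *Tnn* in dermis turned to 0.044 and *Tnc* in endothelium to 0.17 on the log2 scale. The calls of *Tnn* in bone, *Tnxb* in muscle and tendon and *Postn* in tendon were lost at this depth.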
